A study of Mus musculus with 12 samples.

Results

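The PI3K, AKT and mTOR components described here are 9 genes, Pik3cd, Pik3r1, Pik3r5, Akt1, Akt2, Mtor, Rptor, Tsc1 and Tsc2, chosen by gene symbol out of 35855 genes in the transcript tables. All 9 were found and all 9 passed the filter on low counts in every comparison. The libraries are RNA-seq of splenic CD8 T cells of C57BL/6 mice, in 4 groups of 3 libraries. Wild type (WT) donors were compared with donors labelled TCF-7 cKO, called TCF-1 cKO here, in which floxed alleles of Tcf7, the gene of the transcription factor TCF-1, are deleted by a CD4-driven Cre from the double-positive thymocyte stage on. Cells of each genotype were sequenced before transplant and at day 7 after transfer into lethally irradiated female BALB/c recipients, from whose spleens donor CD8 T cells were sorted back. The Cre acts in CD4 and CD8 lineages alike, and no library here is from mice that carry the Cre alone. Donors were matched in age to each other and, as far as could be done, to the recipients. Nothing states whether the 3 libraries of a group came from separate mice, so p-values measure the spread between libraries, which may in part be technical.

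In T cells, PI3K delta is recruited after antigen receptor and costimulatory signals and makes a membrane lipid that docks AKT. AKT in turn blocks the TSC1-TSC2 complex, a brake on the small GTPase Rheb, and so releases mTOR complex 1, which drives protein synthesis, glucose use and growth. The pathway is known in CD8 T cells for setting the balance between effector and memory fates.

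Several facts of the libraries touch the results. Total estimated counts lay between 4520270 and 9577076 in the TCF-1 cKO pre-transplant libraries and between 18184814 and 32657005 in the other 9. Counting error of a gene follows its own counts, and these were not lowest there for every member. In cKO, Rptor held 185, 171 and 793 counts before transplant and 25, 131 and 30 after. Akt2 went the other way, from 346, 264 and 791 counts to 1060, 1017 and 1906. Tcf7, the targeted gene, read 26.2 to 62.7 CPM (estimated counts scaled to a common library size, with TMM normalisation) in cKO against 76.0 to 166 in WT before transplant. The summed T cell markers (Cd3d, Cd3e and Cd3g) were also lower in cKO there, at 112 to 210 CPM against 469 to 521. The part of T cell content in this Tcf7 difference was not tested. At day 7 Tcf7 read 13.6 to 14.6 CPM in cKO, but the library labelled WT post-transplant replicate 3 was lower still at 10.7, beside 26.9 and 26.4 in WT replicates 1 and 2. The pre-transplant libraries did not look like pure CD8 T cells: the 3 T cell markers summed to 112 to 521 CPM there, and the 6 B cell markers to 4302 to 13706. After transplant these sums were 2793 to 5902 and 343 to 1034 CPM. No marker list was at 0 in any group. The part of other cells' RNA in the results below was not tested, and in such bulk samples fewer cells of a type cannot be told apart from less RNA per cell. The library titled cKO post-transplant CD8 replicate 2 has a second label naming CD4 T cells. It held 2.04 CPM of Cd4 and 621 of Cd8a.

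The members differ in base composition, and a pair of coding stretches at the ends of their range is shown. These are given because the genotype differences after transplant, described below, followed GC content. Each is 120 bases of 1 coding exon of the leading coding transcript, picked for a GC content near that of the whole transcript, with G and C in capitals, from GENCODE M21 (build GRCm38). The Akt1 stretch (chr12:112656862-112656981, minus strand, exon 11 of 14) has 60.0% GC and the Pik3r1 stretch (chr13:101702716-101702835, minus strand, exon 5 of 16) has 45.0%.
Akt1: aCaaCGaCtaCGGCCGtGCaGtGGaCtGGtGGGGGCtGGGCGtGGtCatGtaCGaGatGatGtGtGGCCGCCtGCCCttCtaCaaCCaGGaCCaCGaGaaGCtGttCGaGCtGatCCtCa
Pik3r1: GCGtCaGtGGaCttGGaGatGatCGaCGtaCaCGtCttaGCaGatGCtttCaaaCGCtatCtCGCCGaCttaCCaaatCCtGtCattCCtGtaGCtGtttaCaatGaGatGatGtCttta
Over all transcripts of a gene, weighted by abundance, GC content was 45.4% for Pik3r1, 50.6% for Tsc1, 53.7% for Tsc2, 54.8% for Mtor, 55.2% for Akt2, 55.5% for Rptor, 56.4% for Pik3cd, 56.6% for Pik3r5 and 59.2% for Akt1. The median of the members was 55.2%, against 49.5% over the 16026 genes tested after transplant. Most members are thus richer in GC than the typical gene, and Pik3r1 is the exception.

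Transplanted TCF-1 cKO and WT cells were compared to ask how loss of TCF-1 bears on the pathway in alloactivated cells. At day 7, 5 of the 9 members, Akt1, Akt2, Pik3cd, Pik3r5 and Rptor, were lower in cKO than in WT, and none was higher. The differences ran from -2.18 to -3.51 on the log2 scale. Of all 16026 genes tested, 17.9% were called, 15.4% lower and 2.51% higher (edgeR quasi-likelihood test, adjusted p below 0.1, the study's own threshold). The median log2 fold change was -2.18 over the members and 0.15 over all genes. Marker sums also lay apart between the genotypes at day 7, at 343 to 580 CPM in cKO and 619 to 1034 in WT for B cells, 5.10 to 12.9 and 14.2 to 110 for CD4 T cells, and 4093 to 5902 and 2793 to 3770 for the T cell markers. Single markers differed from their sums. Cd4 itself overlapped, at 7.00, 2.04 and 3.65 CPM in cKO and 1.25, 5.46 and 5.04 in WT, as did Foxp3, while Zbtb7b was lower in cKO. Cd3e was lower in cKO, at 193, 150 and 154 CPM against 770, 1747 and 309, while Cd3d and Cd3g were higher. Of the B cell markers only Ighm did not overlap. The part of other cells in the members' differences was not tested.

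Among the PI3K subunits, Pik3cd, the catalytic p110 delta of leukocytes, read 341, 872 and 110 CPM in the 3 WT libraries and 97.3, 43.4 and 98.7 in cKO. The groups did not overlap, but WT replicate 3 lay close to the cKO values. The log2 fold change was -2.80 (SE 0.78, edgeR adjusted p = 0.0583). Pik3r5, the p101 regulatory subunit that couples PI3K gamma to G protein-coupled receptors, read 81.0, 270 and 85.2 CPM in WT and 59.4, 25.4 and 33.4 in cKO, a log2 fold change of -2.18 (SE 0.63, edgeR adjusted p = 0.0648). Its groups did not overlap either. Pik3r1, the p85 alpha regulatory subunit that holds and stabilises p110, was the 1 member with a positive estimate, 0.78 on the log2 scale (SE 0.74, edgeR adjusted p = 0.515), which did not pass the test. It read 17.7, 3.20 and 41.0 CPM in WT and 43.8, 36.6 and 39.9 in cKO. The cKO libraries were close together and WT replicate 3 lay among them.

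Both AKT genes were lower. Akt1, the widely expressed AKT kinase, read 132, 209 and 30.8 CPM in WT and 19.2, 3.76 and 19.0 in cKO, and Akt2, the isoform best known for insulin-driven glucose uptake, read 611, 1147 and 221 CPM in WT and 92.7, 79.7 and 118 in cKO. No cKO library reached the lowest WT library for either gene, and WT replicate 3 was the lowest WT library for both. The log2 fold changes were -3.51 for Akt1 (SE 0.89, edgeR adjusted p = 0.0482) and -3.08 for Akt2 (SE 0.66, edgeR adjusted p = 0.0448).

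Of the mTOR genes, Rptor was lower and Mtor did not pass the test. Rptor, the raptor subunit that brings substrates to mTOR complex 1, read 24.5, 32.1 and 19.8 CPM in WT and 2.19, 10.3 and 1.85 in cKO (log2 fold change -2.62, SE 0.80, edgeR adjusted p = 0.0740). Mtor, the kinase itself, read 43.8, 93.1 and 36.2 CPM in WT and 23.4, 49.8 and 27.2 in cKO, so the groups overlapped (-1.02, SE 0.59, edgeR adjusted p = 0.292). Tsc2, the GTPase-activating subunit of the TSC complex, read 40.7, 178 and 26.5 CPM in WT and 18.7, 17.2 and 30.6 in cKO (-2.17, SE 0.78, edgeR adjusted p = 0.113). Tsc1, its stabilising partner, read 3.42, 11.5 and 16.4 CPM in WT and 5.42, 9.17 and 12.5 in cKO (-0.36, SE 0.62, edgeR adjusted p = 0.730). In both TSC genes the groups overlapped.

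**Figure D1:**
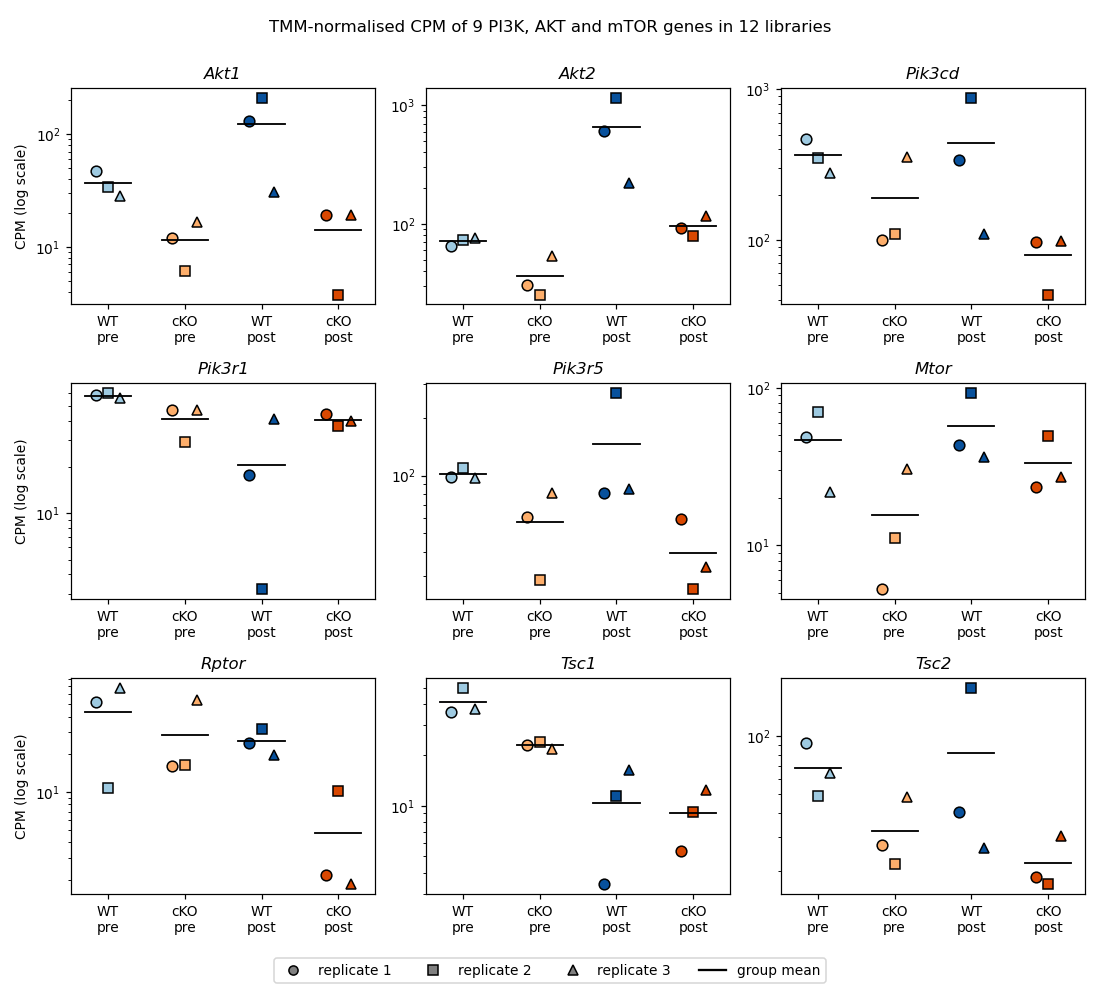
TMM-normalised CPM (log axis) of each of the 9 genes in the 12 libraries, by group, with 1 symbol per replicate and a line at the group mean. After transplant, cKO lies below WT without overlap for Akt1, Akt2, Pik3cd, Pik3r5 and Rptor, and WT replicate 3 (triangle) is the WT library nearest to cKO for Akt1, Akt2, Pik3cd and Rptor.

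Over the 9 members, 5 had groups that did not overlap, all lower in cKO, where 17.3% of all genes tested were apart in that direction. Exact permutation tests of 3 libraries against 3 cannot go below p = 0.1, and each of these 5 reached it. Groups without overlap always give that value, so it adds nothing to the lack of overlap. With limma-voom, the study's own tool, Pik3cd was not called (-2.34, limma adjusted p = 0.104) and the other 4 were. The calls rested on the choice of libraries. Without WT replicate 3, the library with low Tcf7, 6 members were called lower (19.4% of all genes were), and without any 1 of the other 5 libraries none was. The same holds for all genes, of which 5299 were called without WT replicate 3 and 0 to 2 without any other library.

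The spread among the WT post-transplant libraries was itself ordered among the members. The highest library exceeded the lowest by 1.62-fold (Rptor) to 12.8-fold (Pik3r1), with a median of 5.20-fold, against a median of 1.66-fold in the WT pre-transplant group. Replicate 2 exceeded replicate 3 by 7.92-fold for Pik3cd, 6.76-fold for Akt1, 6.71-fold for Tsc2 and 5.20-fold for Akt2. For Pik3r1 the order was turned, with replicate 3 at 12.8 times replicate 2, and Tsc1 was 1.43 times as high in replicate 3. The members of lowest GC content thus moved opposite to the rest between libraries of 1 group. Across 21526 genes, Spearman's rho between a gene's log level in a library, relative to its mean over the 12 libraries, and its GC content was 0.28, 0.36 and -0.04 in WT post-transplant replicates 1 to 3 and -0.30, -0.19 and -0.32 in cKO.

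The same dependence stood in the genotype difference. With all genes tested after transplant put into 10 bins of equal number by GC content, the median log2 fold change was 0.65 in bin 1, 0.07 in bin 6 and -2.59 in bin 10. Pik3r1, at 0.78, fell in bin 3 with a median of 0.72, and Tsc1, at -0.36, fell in bin 6. Mtor and Tsc2 shared bin 8 with its median of -1.03, and Mtor at -1.02 lay on it. Akt2, Pik3cd, Pik3r5 and Rptor were in bin 9, with a median of -1.99 and 45.0% of its genes called lower, and Akt1 was in bin 10, where 54.6% were called lower. All members but Akt1 and Akt2 lay within the interquartile range of their own bin, and these were 0.93 and 1.09 below their bin's median. Across the 9 genes, which are not independent replicates and share the 6 libraries, rho between log2 fold change and GC content was -0.83 and r was -0.91.

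When a trend on GC content and transcript length was fitted for each library and entered as an offset, none of the 9 members was called, and 3.51% of all genes were. The estimate for Akt2 was then -1.42 (SE 0.37, edgeR adjusted p = 0.107), for Rptor -1.36, for Akt1 -0.98, for Tsc2 -0.97, for Pik3cd -0.80 and for Pik3r5 -0.34. Mtor changed sign to 0.31. The offset also moved the median of all genes, from 0.15 to -0.13. With GC content taken as the median of a gene's transcripts, an alternative chosen after seeing the data, Akt2 alone was called, at -1.68 (edgeR adjusted p = 0.0914). What part GC content plays in the lower values was not tested.

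**Figure D2:**
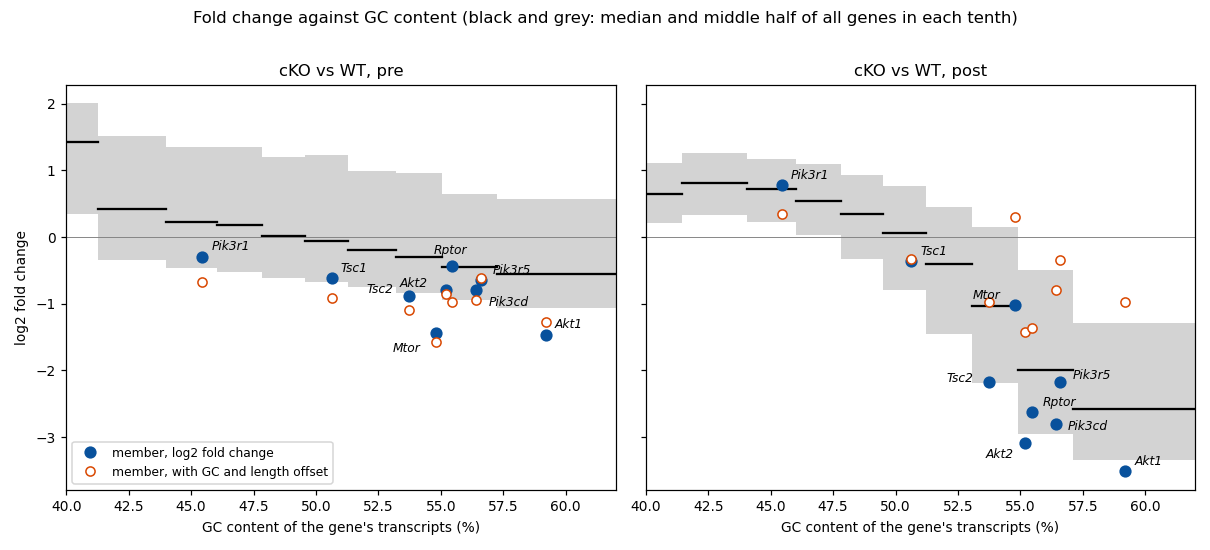
Log2 fold change of TCF-1 cKO against WT (vertical axis) by the GC content in percent of a gene's transcripts, before (left) and after (right) transplant, with bins 1 and 10 drawn only between 40 and 62%. Black lines and grey bands are the median and interquartile range of all genes in each of 10 bins, filled points the 9 genes, open points the same genes with the GC and length offset. After transplant the bin medians fall from 0.65 to -2.59 and 7 of the 9 genes lie within the band of their bin after transplant.

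Before transplant, all 9 members had negative estimates in cKO against WT and none passed the test. This comparison asks whether the difference was there before alloactivation. The estimates ran from -0.29 to -1.46 with a median of -0.79, against 0.05 over all 18757 genes tested, of which 0.0373% were called (7 genes, 0.0213% lower and 0.016% higher, and 3322 at an unadjusted p under 0.05). limma-voom called 0 members and DESeq2 1, Akt1. The groups did not overlap, with cKO lower, for 6 of the 9 members, where 14.3% of all genes were apart in that direction.

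Akt1 read 11.99, 6.15 and 16.7 CPM in cKO and 46.9, 34.3 and 28.3 in WT, a log2 fold change of -1.46 (SE 0.50, edgeR adjusted p = 0.223), and Akt2 read 30.3, 25.4 and 53.6 against 65.6, 73.8 and 76.3 (-0.79, SE 0.42, edgeR adjusted p = 0.322). Neither overlapped. Pik3cd read 99.8, 110 and 356 CPM in cKO and 469, 347 and 279 in WT, and here cKO replicate 3 lay among the WT libraries (-0.80, SE 0.49, edgeR adjusted p = 0.383). Pik3r1 read 47.1, 28.8 and 46.9 CPM in cKO against a narrow 58.3, 60.4 and 55.8 in WT (-0.29, SE 0.41, edgeR adjusted p = 0.694). Its groups did not overlap.

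Among the remaining members 3 did not overlap. Pik3r5 read 60.7, 28.5 and 81.5 CPM in cKO and 98.1, 110 and 96.5 in WT. Tsc1 read 23.0, 23.9 and 21.7 against 36.2, 50.3 and 37.4, and Tsc2 27.5, 21.8 and 48.2 against 91.9, 48.7 and 64.3, with the highest cKO library at 48.2 just under the lowest WT library at 48.7 for Tsc2. Mtor read 5.25, 11.1 and 30.4 CPM in cKO and 48.7, 70.4 and 21.8 in WT, and Rptor 16.2, 16.4 and 53.7 against 51.9, 10.8 and 67.8, so both overlapped. cKO replicate 3, the deepest library of its group, was the highest cKO library for 7 of the 9 members. The exceptions, Pik3r1 and Tsc1, have the lowest GC content. Spearman's rho between log level and GC content, taken as above, was 0.24 in this library and -0.23 and -0.29 in cKO replicates 1 and 2. In WT it was 0.02, 0.27 and 0.12. The part of GC content here was not tested. Without cKO replicate 3, 5 members were called lower (Akt1, Akt2, Pik3cd, Mtor and Tsc2, where 8.91% of all genes were), and without any 1 of the other 5 libraries none was.

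The T cell marker sum moved with this comparison, at 112 to 210 CPM in cKO and 469 to 521 in WT before transplant, as did the sums for plasma cells, at 66.3 to 203 and 397 to 1449, myeloid cells, at 638 to 778 and 1003 to 2525, and plasmacytoid dendritic cells, at 2.10 to 7.88 and 47.1 to 65.1. Cd3d, Cd3e and Cd3g were each lower in cKO without overlap. Of the myeloid markers only Lyz2 did not overlap, and of the plasma cell markers only Ighg2b. The plasmacytoid dendritic value is that of Siglech alone. The B cell sums overlapped, at 4302 to 9868 and 9237 to 13706. Their part in the members' differences was not tested. The GC trend was weaker here, with bin medians from 1.42 to -0.55, and the offset left all 9 estimates negative, between -0.62 and -1.57, with none called, where 0.0427% of all genes were. The median of all genes was then -0.33.

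**Figure D3:**
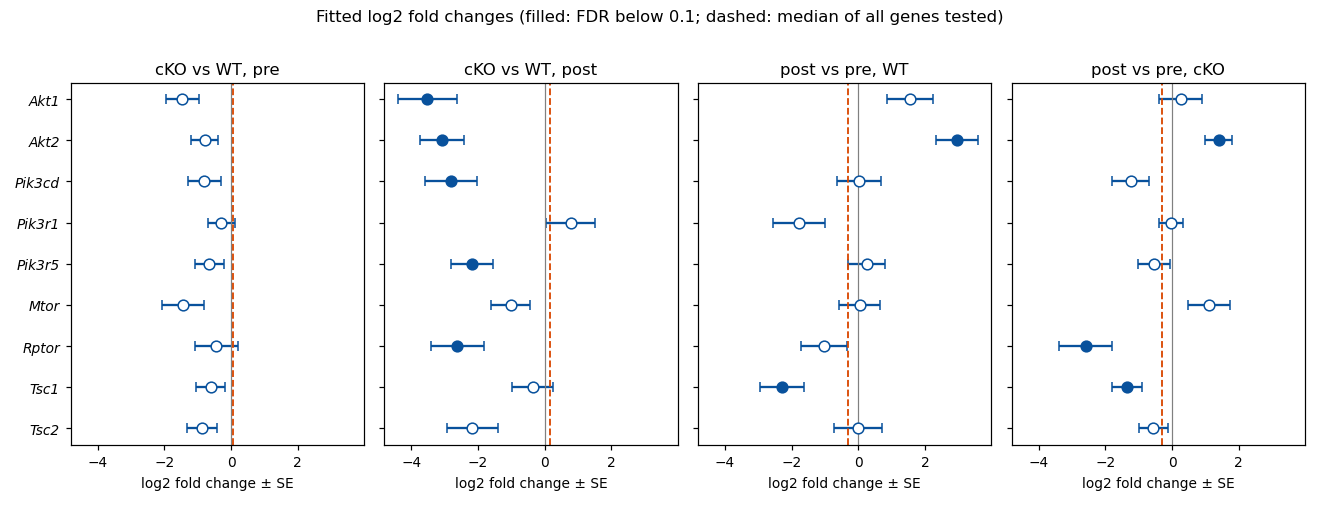
Log2 fold change with its standard error (horizontal axis) of each of the 9 genes in the 4 comparisons, filled where the adjusted p was below 0.1, with a dashed line at the median of all genes tested. After transplant 5 genes are filled to the left of 0, and Akt2 is filled to the right of 0 in both comparisons of post- with pre-transplant cells.

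Whether the genotype difference itself differed between the stages was tested by an interaction over all 12 libraries. No member passed, and 0.00465% of 21526 genes did (1 gene, and 3377 at an unadjusted p under 0.05). limma-voom and DESeq2 called 0 members too, as did the GC and length offset, with which 0.00929% of all genes were called. The estimate was -1.79 for Akt2 (SE 0.75, edgeR adjusted p = 0.286), -1.82 for Rptor, -1.50 for Akt1 and 1.46 for Pik3r1. Without WT post-transplant replicate 3, Akt2 was called at -2.19 (edgeR adjusted p = 0.0686) and Pik3r1 at 2.45 (edgeR adjusted p = 0.0996), where that fit called 8.73% of all genes. A difference between stages was thus not shown with all libraries in.

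Post-transplant cells were set against pre-transplant cells of the same genotype to ask how the pathway's transcripts changed with alloactivation. With TMM normalisation, Akt2 rose and Tsc1 fell in both genotypes, but Akt2 in cKO was lower after transplant on the TPM scale described below. In WT Akt2 and Tsc1 were the 2 members of 9 called, where 20% of 16790 genes were called, 10.3% lower and 9.7% higher. In cKO Rptor also fell, giving 3 of 9, where 36.5% of 18535 genes were called, 16.8% lower and 19.7% higher. Both shares are near those of all genes. The 2 comparisons share no library with each other, but each shares its libraries with the genotype comparisons above.

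Akt2 went from 65.6, 73.8 and 76.3 CPM to 611, 1147 and 221 in WT, a log2 fold change of 2.96 (SE 0.63, edgeR adjusted p = 0.0132). In cKO it went from 30.3, 25.4 and 53.6 CPM to 92.7, 79.7 and 118, a log2 fold change of 1.40 (SE 0.40, edgeR adjusted p = 0.0284). No pre-transplant library reached a post-transplant one in either genotype, and Akt2 was called when any 1 library was left out and with the GC and length offset, at 2.97 in WT and 2.18 in cKO, where that fit called 21.9% and 38.7% of all genes. Tsc1 went from 36.2, 50.3 and 37.4 CPM to 3.42, 11.5 and 16.4 in WT (-2.30, SE 0.65, edgeR adjusted p = 0.0422) and from 23.0, 23.9 and 21.7 to 5.42, 9.17 and 12.5 in cKO (-1.35, SE 0.45, edgeR adjusted p = 0.0508). Its groups did not overlap either, but with the offset it was not called in either genotype, at -1.21 and -0.75. It was called in WT without post-transplant replicate 2 or 3 and not without any of the other 4 libraries, and in cKO without pre-transplant replicate 3 or post-transplant replicate 3 and not without the other 4.

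Rptor in cKO went from 16.2, 16.4 and 53.7 CPM to 2.19, 10.3 and 1.85 (-2.59, SE 0.79, edgeR adjusted p = 0.0367). It was not called with the offset (-1.31), nor without cKO pre-transplant replicate 3 or post-transplant replicate 1 or 3. In WT its estimate was -1.02 (SE 0.69, edgeR adjusted p = 0.377). The other members of WT ran from -1.78 for Pik3r1 (edgeR adjusted p = 0.163) to 1.54 for Akt1 (edgeR adjusted p = 0.172), and Pik3cd, Mtor and Tsc2 lay at 0.03, 0.04 and -0.01. In cKO, Pik3cd was at -1.24 (SE 0.56, edgeR adjusted p = 0.129) without overlap between its groups, and Mtor at 1.10 (SE 0.63, edgeR adjusted p = 0.224). With the offset Mtor was called in cKO at 1.88 (edgeR adjusted p = 0.0211). In WT, 2 members were lower without overlap, Tsc1 and Pik3r1, and 1 higher, Akt2, where 16.2% and 15.9% of all genes were. In cKO, 3 were lower without overlap, Rptor, Tsc1 and Pik3cd, and 1 higher, Akt2, where 23.8% and 23.1% of all genes were. For Pik3cd the highest post-transplant library, at 98.7 CPM, lay just under the lowest pre-transplant library, at 99.8.

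These stage comparisons turn on the scale. TMM factors were 0.46 to 0.70 in the post-transplant libraries and 1.23 to 2.31 in the pre-transplant ones, with no overlap. On log2(TPM + 1), where TPM is abundance scaled for transcript length and library size, the median of all genes shifted to -0.82 in WT and -1.23 in cKO, from -0.30 and -0.29. On that scale Akt2 in cKO was lower after transplant, at -0.89 (limma adjusted p = 0.0394), which is above the median of all genes, and Akt1 in cKO was at -1.77. In WT, Akt2 stood at 1.28 and was not called (limma adjusted p = 0.122). The summed B cell, myeloid and erythroid markers were also lower after transplant, without overlap within either genotype, and cell makeup cannot be told apart from stage here.

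Which transcripts carried a gene's counts was looked at after the gene values were seen. No share of a leading transcript passed the test after adjustment (27 transcripts in 4 comparisons, lowest adjusted p = 0.4 in exact permutation tests), so the shares are given as values. For Mtor, before transplant, the full-length coding transcript (ENSMUST00000103221, 8564 bases, 58 exons, chr4:148448611-148557683 on the plus strand) held all of the gene's estimated counts in WT replicate 1, 98.9% and 84.1% in replicates 2 and 3, and 98.3%, 91.4% and 94.7% in cKO. After transplant it held 28.8%, 29.7% and 11.4% in WT and 30.1%, 35.2% and 17.5% in cKO. Most of the rest lay on a short transcript annotated as coding (ENSMUST00000057580, 1003 bases, 5 exons, chr4:148448625-148454973), which ends within the 5' part of the gene. It carried 58.1% to 86.9% of the counts after transplant and 0.0% to 13.9% before. The stages did not overlap for either transcript in either genotype. The short transcript also took a smaller share in cKO (58.1% to 68.6%) than in WT (69.2% to 86.9%) after transplant.

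Full-length Mtor read 48.7, 69.6 and 18.4 CPM in WT before transplant and 12.6, 27.7 and 4.12 after, and in cKO 5.16, 10.2 and 28.8 before and 7.05, 17.5 and 4.76 after, so the stages overlapped in both genotypes. The short transcript read 31.1, 64.4 and 31.5 CPM in WT after transplant and at most 3.03 before. In TPM, where the median of all genes is also lower after transplant, full-length Mtor read 7.34, 12.2 and 2.54 in WT before and 0.81, 1.30 and 0.23 after, and in cKO 1.14, 2.52 and 4.81 before and 0.36, 1.02 and 0.25 after. Exact permutation tests of the share gave p = 0.1, the smallest possible, and 0.4 after adjustment over 108 tests (27 leading transcripts, 4 comparisons). On the log2(TPM + 1) scale Mtor was higher after transplant in both genotypes (1.35 in WT, 1.33 in cKO), which the short transcript carries.

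**Figure D4:**
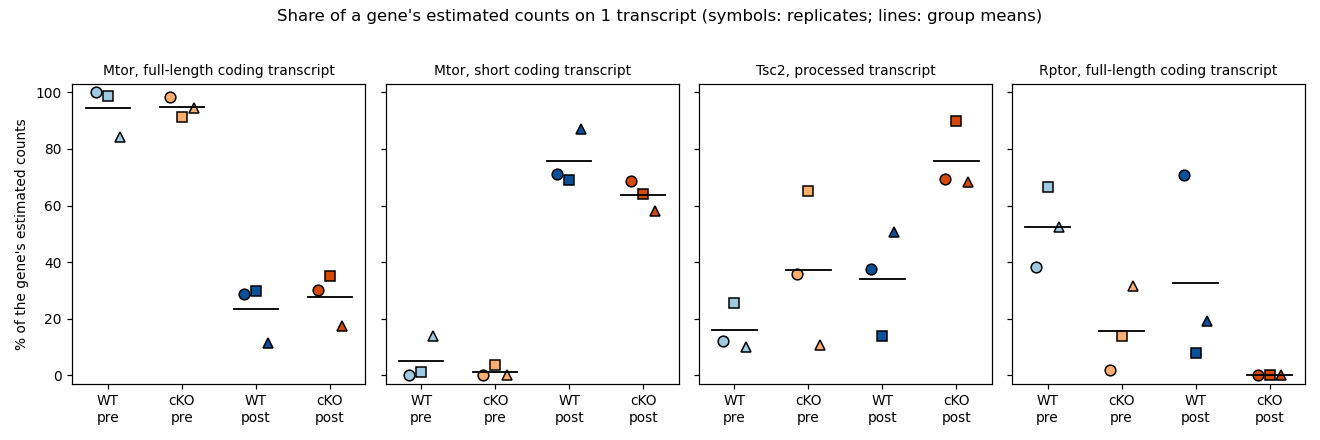
Share in percent of a gene's estimated counts carried by 1 transcript (vertical axis) in each library, by group, with 1 symbol per replicate and a line at the group mean. Panels show full-length Mtor, short Mtor, the Tsc2 processed transcript and full-length Rptor. Full-length Mtor holds 84.1% or more before transplant and 35.2% or less after, and full-length Rptor is at or near 0 in the 3 cKO post-transplant libraries.

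For Rptor and Tsc2, the share of counts on coding transcripts did not overlap between the genotypes after transplant, but neither passed the test after adjustment. The coding share of Akt2 did not overlap either, at 99.9% in WT and 97.5% in cKO on average. Protein-coding transcripts of Rptor held 71.4%, 7.78% and 19.1% of its counts in WT after transplant and 5.53%, 0.0% and 0.03% in cKO, which is 363, 32.1 and 44.4 estimated counts against 1.37, 0.0 and 0.01. All 3 cKO values are under the floor of 3 counts. The whole gene held 25, 131 and 30 counts in these libraries, which Kallisto splits among overlapping transcripts. The full-length coding model (34 exons) and the model marked for nonsense-mediated decay (33 exons, below) span nearly the same bases. The floor covers counting error and not the error of this split, so absence of coding Rptor was not shown. Before transplant the share was 52.4% ± 14.0 in WT and 15.6% ± 15.0 in cKO (SD, n = 3), without overlap. A transcript marked for nonsense-mediated decay (ENSMUST00000147781, 6138 bases, 33 exons, chr11:119603698-119899576), which spans nearly the whole gene, held 69.5% ± 9.5 in cKO and 26.5% ± 23.0 in WT before transplant (SD, n = 3), and 39.4% ± 14.6 and 49.8% ± 27.5 after.

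Protein-coding transcripts of Tsc2 held 65.6% ± 18.7 of its counts in WT after transplant and 22.7% ± 12.7 in cKO (SD, n = 3), again without overlap. In cKO a processed transcript without a coding frame (ENSMUST00000227754, 2357 bases, chr17:24612627-24632602, minus strand) held 75.9% ± 12.3, against 34.0% ± 18.6 in WT. Exact permutation tests of the coding share after transplant gave p = 0.1 for Rptor, Tsc2 and Akt2, 0.3 after adjustment over the 9 members. When only protein-coding transcripts were counted, Tsc2 was also called lower in cKO after transplant, at -3.74 (edgeR adjusted p = 0.0737), so 6 members were, where that fit called 15.0% of all genes lower. Tsc2 shares 693 of its 9620 exonic bases, 7.20%, with Pkd1 on the opposite strand, and since the library kit does not mark strand, reads there cannot be assigned to either gene by strand.

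Pik3r1 and Tsc1 were also carried in part by noncoding models. A retained-intron fragment of Pik3r1 (ENSMUST00000185701, 472 bases, chr13:101701449-101702104, minus strand) took 79.0% ± 12.7 of its TPM in WT and 78.3% ± 6.0 in cKO after transplant, and 30.5% ± 2.8 and 38.3% ± 18.2 before (SD, n = 3). By counts, which do not reward short transcripts, it took 21.4% and 17.9% after and 2.84% and 4.11% before. Coding transcripts of Tsc1 never held more than 47.3% of its counts in a library. Akt2, Pik3r5 and Pik3cd had at least 81.6% of their counts on coding transcripts in every library. Akt1 and Mtor were not far from these, with lowest shares of 74.7% and 75.6%. In TPM the lowest coding share in a library was 63.6% for Akt2, 50.8% for Pik3r5 and 27.5% for Pik3cd.

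Levels between genes can be compared per length, in TPM, but TPM summed over a gene also counts its short and noncoding transcripts. Pik3cd led before transplant, at 124 ± 28.7 TPM in WT and 73.5 ± 31.6 in cKO (SD, n = 3), and did not overlap the next gene, Akt2, at 39.0 ± 13.3 and 31.8 ± 5.9. After transplant Akt2 led in WT at 110 ± 65.3 TPM, followed by Pik3cd at 47.1 ± 28.5, with overlap. In cKO after transplant Pik3cd, Pik3r1, Akt2 and Mtor lay between 14.1 and 17.3 TPM on average and each overlapped its neighbour. Mtor did not overlap the next gene, Pik3r5, at 5.45 ± 2.08 TPM, and Akt1, Tsc1 and Rptor were the lowest at 2.62, 1.51 and 0.72. Neighbours not named as apart overlapped in at least 1 library, except Tsc2 above Akt1 in that group, where the gap was 3.60 against 3.57 TPM. On coding transcripts alone, the averages in cKO after transplant were 15.0 TPM for Akt2, 13.5 for Mtor, 8.14 for Pik3cd and 2.80 for Pik3r1. Most of that Mtor value lay on its short transcript.

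The balance within pairs of members was not constant. Akt2 was 3.69 to 5.01 times Akt1 in TPM in the WT post-transplant libraries and 4.47 to 20.0 times in cKO, and 0.94 to 1.88 and 2.88 to 3.40 times before transplant. Pik3cd was 0.96 to 1.21 times Pik3r1, its regulatory partner, in cKO after transplant and 1.78 to 32.7 times in WT. The Pik3cd to Pik3r1 ranges did not overlap between the genotypes, but Pik3r1 TPM leans on the short fragment described above. Pik3cd TPM was also in part noncoding. After transplant its coding transcripts held 58.5%, 27.5% and 59.4% of it in cKO and 92.3%, 97.9% and 60.0% in WT.

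A promoter of Akt2, 1 of its 4, and the promoter of Pik3r5 are shown because TCF-1 is the deleted factor and they hold its core motif. The letters CTTTGA, or TCAAAG on the other strand, are the core of the TCF/LEF consensus and were searched from 250 bases before to 50 bases after each RefSeq start (GRCm38.p6). Of the 16 promoters of the 9 genes, 2 hold them (12.5%), against 16.0% of all 32851 promoters of that length. The Akt2 coding transcript with the most estimated counts (ENSMUST00000051356) starts at base 27605858. It lies beside another Akt2 promoter (chr7:27605547-27605846) that holds no match. Matches are in capitals, in Akt2 at bases 38 and 61 of the stretch (chr7:27591302-27591601, plus strand) and in Pik3r5 at base 113 (chr11:68431875-68432174, plus strand).
Akt2: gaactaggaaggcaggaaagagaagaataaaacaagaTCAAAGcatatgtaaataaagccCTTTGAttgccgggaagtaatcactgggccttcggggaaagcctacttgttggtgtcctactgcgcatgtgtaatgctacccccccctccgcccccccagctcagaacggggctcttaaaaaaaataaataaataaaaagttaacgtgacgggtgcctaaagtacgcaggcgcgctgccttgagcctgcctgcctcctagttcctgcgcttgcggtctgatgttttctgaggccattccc
Pik3r5: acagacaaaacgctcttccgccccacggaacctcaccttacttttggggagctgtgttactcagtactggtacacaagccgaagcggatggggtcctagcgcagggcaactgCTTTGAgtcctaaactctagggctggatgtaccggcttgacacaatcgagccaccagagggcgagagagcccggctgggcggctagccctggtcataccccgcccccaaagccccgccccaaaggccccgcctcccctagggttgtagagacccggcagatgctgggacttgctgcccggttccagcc
A match is a description of letters, not of binding, and no binding data were measured.

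A list of 59 other genes of the pathway was read in the same fits. After transplant 18 were called lower in cKO, 3 higher and 38 not, where 15.4% and 2.51% of all genes were lower and higher, and the median log2 fold change was -0.70. Their median GC content was 50.9%, and with the GC and length offset none of the 59 was called. Of 7 other mTOR complex subunits 4 were lower, among them Prr5 (-3.34) and Prr5l (-2.15), subunits of mTOR complex 2, while Rictor, the defining subunit of that complex, was at 1.01 and not called. Of 3 lipid phosphatases, Inpp5d, the SHIP1 phosphatase that removes the PI3K product, was lower (-2.33).

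Among 11 kinase substrates, Eif4ebp2 (-3.15), a translation repressor, and Rps6kb2 (-2.88), an S6 kinase, were the lower ones with the smallest p, with Gsk3a the third, while Rps6 (1.25) and Eif4e (1.65), the ribosomal protein target of S6 kinases and the cap-binding factor, were higher. Of 7 nutrient genes 5 were lower, led by Srebf1 (-3.53) and Srebf2 (-3.42), regulators of lipid and sterol synthesis. In the amino acid arm 3 of 16 were lower, with Castor1 (-3.70), an arginine sensor, and Lamtor1 (-2.85), a lysosomal anchor, named by the rule, and 1, Rragd, was higher. Of 5 other PI3K regulatory subunits and adaptors, Pik3r2 (-4.63) and Pik3ap1 (-1.99) were lower. None of the 4 other catalytic subunits, 4 AKT kinases and phosphatases or 2 TSC and Rheb genes was called.

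**Figure D5:**
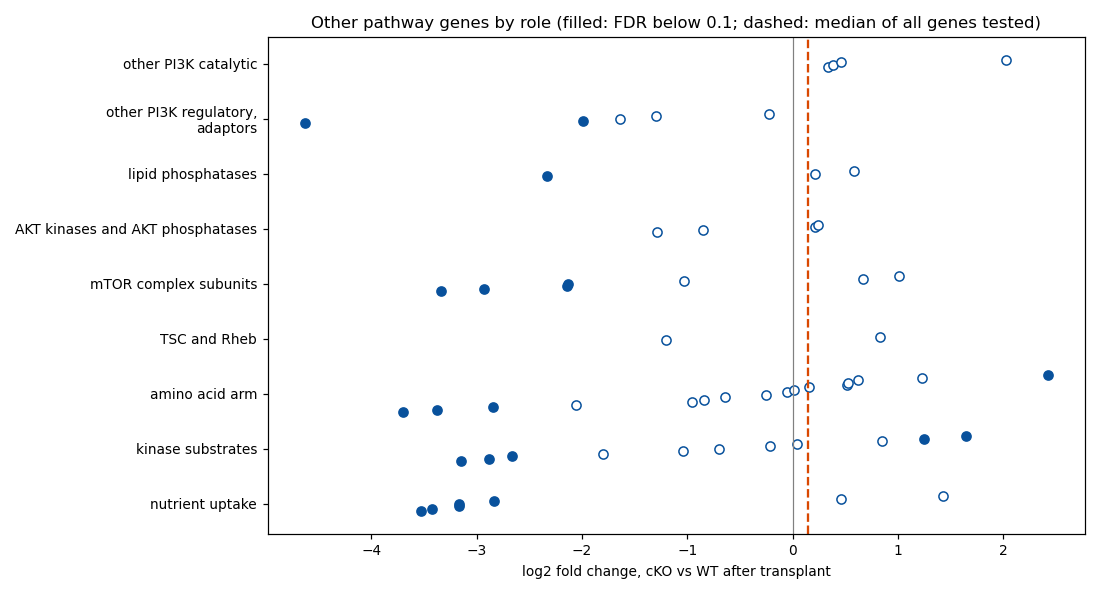
Log2 fold change of TCF-1 cKO against WT after transplant (horizontal axis) for 59 other genes of the pathway, 1 point each, by role, filled where the adjusted p was below 0.1, with a dashed line at the median of all genes tested (0.15). Filled points to the left are 18, to the right 3, and the catalytic subunits are unfilled.

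Before transplant 58 of the 59 genes were tested and none was called, with Srebf1 at -2.18 (edgeR adjusted p = 0.179) and Prr5l at -1.77. Between stages, 8 were lower and 3 higher after transplant in WT, and 12 lower and 12 higher in cKO, where 10.3% and 9.7% of all genes were lower and higher in WT and 16.8% and 19.7% in cKO, so the cKO counts lay near the shares of all genes. Pik3r4, the p150 subunit of the class III enzyme, fell in both (-3.84 in WT, -4.01 in cKO), while Lamtor5 (4.51) and Rps6 (3.16) rose in cKO. None of the 59 passed the interaction test.

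Across the 12 libraries the members did not move as 1 block. Of 36 member pairs, 6 had Pearson's r above 0.8 on log2(CPM + 1) and 10 were negative, from -0.77 to 0.93 for Pik3cd and Tsc2. Pik3r1 was negative with 7 of the other 8. Of 21525 other genes, those most like Akt2 were Eno1, a glycolytic enzyme (r = 0.99), and Il2rb, the IL-2 receptor beta chain (r = 0.99). Akt1 was most like Eif3b (0.98) and Arfgap2 (0.98), Pik3cd like Cpsf1 (0.98) and Supt5 (0.97), and Pik3r1 like Snrnp48 (0.96) and Trappc11 (0.95), which have 41.4% and 46.5% GC. Mtor was most like Rps28 (0.93) and Rpl37a (0.91), both short ribosomal protein genes with many near-identical copies, so their counts are uncertain. The points share 4 groups, depth and base composition, and the values are a description.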

How the data were processed

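Sorted splenic CD8 T cells had been profiled by RNA-seq in 12 libraries, in 4 groups of 3 by their titles. The authors pseudoaligned reads with Kallisto 0.46.2, and the deposited estimated counts per transcript (117497) are not scaled. The deposited TPM values were scaled by the authors for length and depth. mm9 is the build in the submitters' processing notes, and the transcript release is not given in the sources used here. Transcripts were joined without version to GENCODE M21 (116374 matched, 35855 genes), and estimated counts were summed per gene and rounded. Every coordinate is from GRCm38, not the authors' files.

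Genes were tested with edgeR 4.0.16 (TMM, filterByExpr, quasi-likelihood) in R 4.3.3, with Benjamini-Hochberg adjustment over all genes tested and a threshold of 0.1. The study used limma-voom, an alternative here (limma 3.58.1) beside DESeq2 1.42.0, no filter, log2(TPM + 1), a replicate block, a loess offset on GC content and length (span 0.4), and leaving out each library. CPM used TMM over all 12 libraries. Fits were tested on simulated data. Depth was 4520270 to 32657005 counts, and 3 counts were taken as the floor; reads carry no molecular identifiers, so floors cover counting error only. Replicate numbers were not taken to pair samples. Tables were handled with pandas in Python.

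The members and gene lists were chosen with earlier results of these data known. The rule for named genes took all members, up to 2 called genes a role of the pathway list by smallest p (or the 1 with the smallest p where none was called), and the 2 most alike genes per member. Gsk3a, Rragd, Rictor, Rps6 and Eif4e after transplant were named after their values were seen.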

Additional observations from a re-analysis of the deposited data

How the results depend on the processing

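With all 6 post-transplant libraries, the number of members lower in cKO (with the share of all genes called lower) was 4 with limma-voom (13.4%) and with log2(TPM + 1) (11.7%), 5 with DESeq2 size factors in place of TMM (16.4%), and 6 with DESeq2 (21.6%), without the filter on low counts (9.19%) and with coding transcripts alone (15.0%). It was 0 with the GC and length offset (562 genes called, 2.68% lower) and 1 with that offset from transcript medians (966 genes, 4.79% lower), while DESeq2 called 4524 genes. Coding transcripts alone and the offset from transcript medians were chosen after seeing the data. Tsc1 was then at 0.69 (coding transcripts) and Mtor at 0.31 (offset).

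Before transplant, 7 genes were called, against 2 with limma-voom, 1451 with DESeq2 (1 member), 3 with DESeq2 size factors, 619 without the filter, 341 with log2(TPM + 1), 0 with coding transcripts and 13 with the offset from transcript medians. Pik3r1 turned to 0.10 with log2(TPM + 1) and 0.18 with coding transcripts. For the interaction the 1 gene called became 1713 with DESeq2, 580 without the filter, 114 with log2(TPM + 1), 0 with coding transcripts and 2 with either offset; Mtor was at -0.021 and Tsc1 at -0.11 with log2(TPM + 1).

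Between stages, log2(TPM + 1) called 6732 genes and 6 members in WT and 13174 genes and all 9 members in cKO, and turned Akt1 to -0.29, Pik3cd to -1.54 and Pik3r5 to -0.97 in WT and Akt1 to -1.77 and Akt2 to -0.89 in cKO. The offset called 1 member in WT. In WT, Pik3cd turned to -0.41 (limma-voom), -0.12 (coding transcripts) and -0.22 (offset from transcript medians), Mtor to -0.16 (coding transcripts), and Tsc2 to 0.27 (DESeq2, and DESeq2 size factors), 0.14 (no filter) and 0.19 (offset). In cKO, Pik3r1 turned to 0.0030 (DESeq2) and 0.0033 (DESeq2 size factors), Pik3r5 to 0.51 (offset) and 0.26 (offset from transcript medians), and Tsc2 to 0.13 (offset). With coding transcripts 8 members could be tested in cKO.

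Samples with the same replicate number did not deviate together by the rule used (correlations of -0.11 to 0.12). After transplant every library correlated best with its own number (6 of 6, correlations of 0.017 to 0.066), a hint from the data and not the design. The replicate block called 0 genes before transplant and for the interaction, and 2 members, Akt2 and Rptor, after transplant (11.1% of all genes lower). It turned Pik3cd to -0.42 in WT between stages. With block and offset together, 11 genes were called before transplant, 2 genes and 0 members after, 2 for the interaction and 1 member in WT between stages. Mtor was then at 0.25 after transplant, Pik3cd at -0.0054 in WT, and Pik3r5 at 0.51 and Tsc2 at 0.082 in cKO.

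Leaving out 1 library moved the genes called over 0 to 2739 before transplant (members 0 to 5), 0 to 5299 after (0 to 6), 1579 to 4156 in WT between stages (1 to 4), 5242 to 7114 in cKO (1 to 3) and 0 to 2093 for the interaction (0 to 2). Estimates that changed sign then ranged from -0.29 to 0.51 (Mtor), -0.70 to 0.71 (Pik3cd), -0.31 to 0.79 (Pik3r5) and -1.03 to 0.66 (Tsc2) in WT, from -0.0083 to 0.74 (Akt1) and -0.15 to 0.19 (Pik3r1) in cKO, and from -1.27 to 0.48 (Tsc2) for the interaction. Where 1 group had 2 libraries, edgeR pooled the spread. Over all settings for single members, 627 values kept direction and side of the threshold, 66 lost the call, 36 gained it and 44 changed sign. The causes of these changes were not tested. In the cKO pre-transplant libraries, 3 counts correspond to up to 0.664 CPM when scaled by total counts alone, without the TMM factor. The TMM factors there were 1.55 to 2.31, so 3 counts are a lower value on the TMM scale used above. The lowest count of a member in these libraries was 60, for Mtor in replicate 1, above the floor of 3. Coding Rptor in cKO after transplant is limited by depth and by the split of counts among transcripts.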
